A study of Homo sapiens with 8 samples.

Results

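The genes described here are 32 genes of cholesterol and fatty acid synthesis, measured in HCT-116, a human colorectal cancer cell line, after knockdown of the homeobox factor HHEX, of the coactivators YAP and TAZ, or of the TEAD factors to which YAP and TAZ bind. They were chosen by name as genes of sterol and fatty acid synthesis under the SREBP factors, with these factors and their controls included. Earlier results of these data were known when the choice was made. All 32 were among the 20030 rows of each library, and all 32 passed the filter on low values, at least 1 FPKM in at least 2 of the 8 libraries, which left 10677 genes. RNA was sequenced in 2 libraries of cells transfected with control siRNA (siNC), in 3 in which *HHEX* was silenced (siHHEX), in 2 in which *YAP1* and *WWTR1*, the gene of TAZ, were silenced together (siYAP/TAZ), and in 1 labelled as a joint knockdown of the genes *TEAD1* to *TEAD4* (siTEAD1/2/3/4). All cells carried the genome of this 1 line, with no further allele or agent named. Each value is in FPKM, fragments scaled by the length of the gene and the total of the library, and the number of reads behind it is unknown. The siRNA differed between replicates of the same knockdown, and the study names a single control siRNA.

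Cells make cholesterol from acetyl-CoA through mevalonate, isoprenoid diphosphates, squalene and lanosterol, and they make fatty acids from acetyl-CoA through malonyl-CoA. The factors SREBP1 and SREBP2 are made as precursors in the endoplasmic reticulum (ER) membrane. When sterols are low, the escort protein SCAP carries them to the Golgi, where proteases release the active factor, and when sterols are high, the INSIG proteins hold SCAP in the ER. The SREBP target genes are known for rising and falling together with sterol supply. FPKM measures transcript level, not the activity of a factor or the amount of a lipid.

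The siRNA targets were examined first. *HHEX* was at 8.5998 and 9.06 FPKM in siNC, 3.25, 3.54 and 1.85 in siHHEX, 4.7995 and 7.12 in siYAP/TAZ and 7.75 in the library labelled siTEAD1/2/3/4. In siHHEX it fell (log2 fold change -1.37) and did not overlap siNC (adjusted p = 0.005403). Adjusted p values are those of limma over the 10677 tested genes (Benjamini-Hochberg), and a value in parentheses before one, with or without its SE, is the log2 fold change against siNC on log2(FPKM + 1). *YAP1* was at 20.2 and 19.7 FPKM in siNC, 5.77, 17.4 and 6.93 in siHHEX, 6.903 and 8.39 in siYAP/TAZ and 22.6 in the library labelled siTEAD1/2/3/4. Its adjusted p was 0.0681 in siYAP/TAZ and 0.0429 in siHHEX, where siHHEX 1 and 3 were low and siHHEX 2 was near siNC. *WWTR1* was at 6.796 and 6.72 FPKM in siNC and at 2.64 and 2.58 in siYAP/TAZ (adjusted p = 0.0156). In siHHEX *WWTR1* was at 5.12, 6.12 and 8.55 FPKM, overlapping siNC (-0.06, adjusted p = 0.820), and in the library labelled siTEAD1/2/3/4 at 6.84. *TEAD1*, *TEAD2* and *TEAD4* were at 9.02, 2.73 and 5.56 FPKM in the single TEAD library, below both siNC values of each gene (18.3 and 19.04, 4.099 and 3.47, and 20.3 and 21.3). *TEAD3* was not, at 9.08 FPKM against 7.36 and 6.99 in siNC, and the sample is therefore called the library labelled siTEAD1/2/3/4. Beside *HHEX* and *YAP1*, *TEAD1* fell in siHHEX (-1.25 ± 0.21 (SE), adjusted p = 0.00641) and *TEAD2* rose (0.78 ± 0.14 (SE), adjusted p = 0.00709), and *TEAD4* fell in siYAP/TAZ (-0.63 ± 0.13 (SE), adjusted p = 0.02496).

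The identity of the cells was checked against marker genes. Of 8 colorectal epithelial markers, *EPCAM*, *CDH1*, *KRT8*, *KRT18*, *KRT19* and *CDX2* passed the filter, and the list summed to between 1977 and 3659.97 FPKM per library, with *KRT8* the most abundant. *VIL1* and *CEACAM5* were at or near 0 in every library. The sums were 0.726 to 2.797 FPKM for 6 fibroblast markers and 0.0202 to 0.0882 FPKM for 3 endothelial markers. The 4 leukocyte markers given here summed to between 3.57 and 7.33 FPKM, nearly all of it *CD68*, with *PTPRC*, *CD3E* and *CD14* at or near 0. *KRT8* fell in siYAP/TAZ (-0.88 ± 0.09 (SE), adjusted p = 0.00227), as did *KRT18* (-1.22 ± 0.10 (SE), adjusted p = 0.000861). In siHHEX, *EPCAM* (-0.38 ± 0.11 (SE), adjusted p = 0.0289) and *KRT18* (-0.29 ± 0.09 (SE), adjusted p = 0.0348) fell and *CDX2* rose (0.42 ± 0.14 (SE), adjusted p = 0.04204). In bulk RNA, fewer cells of a kind and less RNA per cell cannot be told apart.

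The siHHEX libraries stood apart from the others in base composition. Over the tested genes with a GC content, Spearman's rho between the change of a gene from the siNC mean and the GC content of its transcript was 0.679, 0.599 and 0.756 in siHHEX 1, 2 and 3. The same rho was 0.0609 and -0.0519 in the siYAP/TAZ libraries, 0.300 in the library labelled siTEAD1/2/3/4 and 0.211 in siNC 2 set against the siNC mean. GC content and length together accounted for 47.3%, 34.3% and 57.4% of the variance of the changes of siHHEX, for 2.32% and 0.554% in siYAP/TAZ and for 9.13% in the library labelled siTEAD1/2/3/4. The siHHEX values below are given as deposited, and the counts and leading genes again with this trend taken off. How the trend arose was not tested. With it taken off, below called the composition correction, *HHEX* and *TEAD1* were still called lower in siHHEX (-1.34 and -0.93, adjusted p = 0.0163 and 0.0201). The siHHEX calls of *YAP1* (-0.77, adjusted p = 0.171) and *TEAD2* (0.45, adjusted p = 0.0993) were lost, and *TEAD4* was called lower in siHHEX (-0.52, adjusted p = 0.0381). In siYAP/TAZ, *YAP1* (-1.30, adjusted p = 0.0459), *WWTR1* and *TEAD4* were all called lower. Among the epithelial markers, the siHHEX calls of *EPCAM* (-0.27, adjusted p = 0.106) and *CDX2* (0.12, adjusted p = 0.528) were lost, and *KRT18* (-0.69, adjusted p = 0.00565) and *KRT8* (-0.35, adjusted p = 0.0491) were called lower in siHHEX.

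Promoter windows of 300 bases, from 250 before to 50 after the RefSeq start in GRCh38.p14, were found for 28 of the 32 genes and searched on both strands. Those of *TM7SF2* and *HSD17B7* are shown because these were the genes that passed the test in siYAP/TAZ, and those of *INSIG1* and *SREBF2* because they hold a word known from SREBP sites. Capitals mark the palindrome CACGTG, the sterol response element word TCACNCCAC with its inner form CACCCCAC, which overlaps it, and the NF-Y word CCAAT or its complement ATTGG. All 4 lie on the plus strand.
TM7SF2, chr11:65111622-65111921: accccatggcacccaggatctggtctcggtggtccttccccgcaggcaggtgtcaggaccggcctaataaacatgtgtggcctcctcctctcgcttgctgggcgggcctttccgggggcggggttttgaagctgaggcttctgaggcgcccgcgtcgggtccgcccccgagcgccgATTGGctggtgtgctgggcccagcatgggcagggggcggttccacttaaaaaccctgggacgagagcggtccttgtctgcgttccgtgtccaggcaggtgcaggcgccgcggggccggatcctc
HSD17B7, chr1:162790452-162790751: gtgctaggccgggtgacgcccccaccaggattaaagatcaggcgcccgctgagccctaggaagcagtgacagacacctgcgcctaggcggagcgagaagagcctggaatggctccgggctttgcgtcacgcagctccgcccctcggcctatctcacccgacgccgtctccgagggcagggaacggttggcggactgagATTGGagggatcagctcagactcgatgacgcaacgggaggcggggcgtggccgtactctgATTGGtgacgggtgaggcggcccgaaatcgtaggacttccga
INSIG1, chr7:155297628-155297927: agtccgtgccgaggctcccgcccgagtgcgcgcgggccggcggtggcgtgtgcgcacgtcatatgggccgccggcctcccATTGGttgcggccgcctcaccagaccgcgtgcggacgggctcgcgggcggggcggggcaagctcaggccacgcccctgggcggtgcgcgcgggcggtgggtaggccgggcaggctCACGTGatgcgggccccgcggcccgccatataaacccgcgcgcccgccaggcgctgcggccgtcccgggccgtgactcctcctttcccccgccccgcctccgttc
SREBF2, chr22:41832855-41833154: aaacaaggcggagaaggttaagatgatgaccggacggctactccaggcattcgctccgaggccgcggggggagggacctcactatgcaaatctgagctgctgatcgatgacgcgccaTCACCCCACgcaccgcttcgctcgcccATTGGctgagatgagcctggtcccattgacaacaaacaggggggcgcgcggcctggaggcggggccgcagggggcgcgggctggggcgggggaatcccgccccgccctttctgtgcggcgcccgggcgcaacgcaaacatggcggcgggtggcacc

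The word TCACNCCAC was in 1 of the 28 promoters, that of *SREBF2*, with its first base 133 bases before the start, and in 1.13% of all 35116 promoters of the same length. CACCCCAC was in the same promoter alone, and in 2.79% of all. CACGTG was in the promoters of *LSS*, *SC5D*, *INSIG1* and *SCAP*, that is in 14.3% of the 28, against 7.26% of all promoters and 10.5% of the 8517 promoters of tested genes. CCAAT was in 17 of the 28 (60.7%), against 37.2% of the promoters of tested genes. The Sp1 word GGGCGG, which is not in capitals above, was in 26 of the 28 (92.9%), against 73.3%. These are matches of exact letters in a short window, so that variants of a word are not counted, and binding was not measured.

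As a set, the genes did not move in a common direction after *HHEX* knockdown. Of the 32, 8 were higher in siHHEX than in siNC at an adjusted p under 0.05, *MVD*, *FDPS*, *LSS*, *TM7SF2*, *EBP*, *SREBF1*, *SCAP* and *FADS2*, where 16% of all tested genes were higher. A further 10 were lower, *HMGCS1*, *IDI1*, *SQLE*, *CYP51A1*, *MSMO1*, *SC5D*, *INSIG2*, *STARD4*, *ACLY* and *ELOVL6*, where 16.9% of all tested genes were lower. The median log2 fold change of the 32 was 0.03, against -0.01 over all tested genes and -0.02 over the 9619 with a mean level in the range of the 32. Each of these 18 calls rested on having both siNC libraries. With siNC 1 or siNC 2 left out, siNC is a single library and the other groups alone give the spread. A call lost there does not show that the change was lost, and none of the 18 changed sign.

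After *YAP1* and *WWTR1* knockdown, the set lay above siNC more often than below it, but few genes passed the test. *TM7SF2* and *HSD17B7* rose, 2 of the 32 (6.25%), where 6.15% of all tested genes rose, and 0 fell, where 2.13% of all did. At an unadjusted p under 0.05, 14 of the 32 were higher and 0 lower, against 19.4% and 7.85% of all tested genes. The median log2 fold change was 0.32, against 0.08 over all tested genes and 0.08 over those in the same range of level. The changes above 0 numbered 28 of 32 (87.5%) in siYAP/TAZ 1 and 22 of 32 (68.8%) in siYAP/TAZ 2, against 59.4% and 60.2% of all tested genes. The count of 2 was 8 when only siNC and siYAP/TAZ were fitted, where 11.4% of all tested genes were higher, and 6 without siHHEX 2, where 8.88% were. It was 1 without siNC 1 or without siNC 2, where 0.103% and 0.0749% were. Both knockdowns are compared with the same siNC libraries, so that their changes are not independent of each other.

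**Figure D1:**
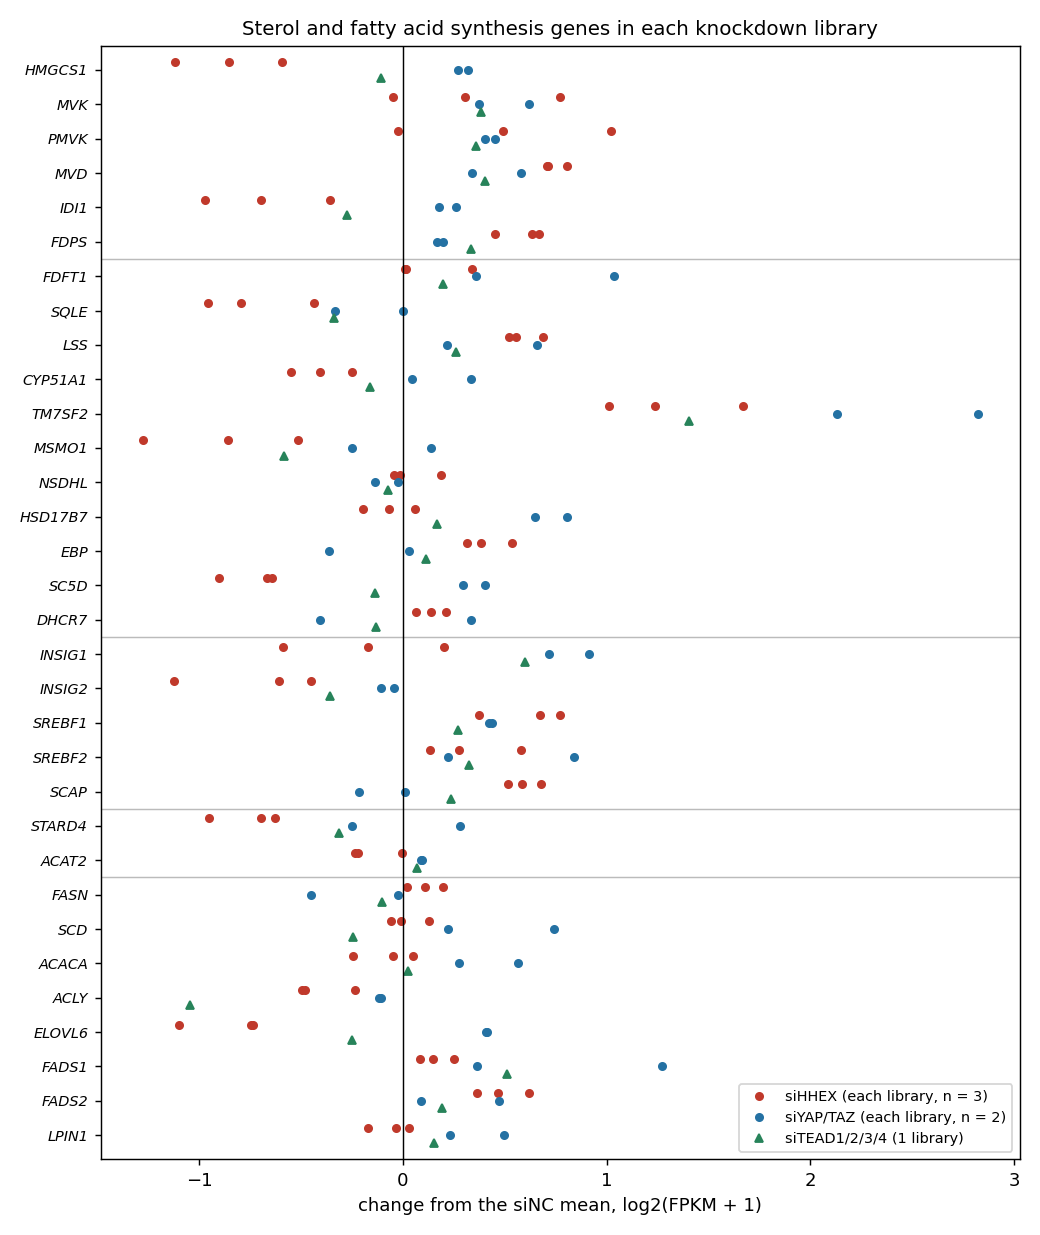
Change of each of the 32 genes from the siNC mean on log2(FPKM + 1), with 1 point for each siHHEX library (red, 3) and each siYAP/TAZ library (blue, 2) and a triangle for the single library labelled siTEAD1/2/3/4 (green), grouped by role from top to bottom. The siHHEX points lie on both sides of 0 by gene, and *TM7SF2* is to the right of the other genes in both siYAP/TAZ libraries.

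The first group comprised 6 genes of the mevalonate and isoprenoid steps, from HMG-CoA synthase to farnesyl diphosphate synthase, and not every enzyme of these steps is among the 32. *HMGCS1*, the cytosolic HMG-CoA synthase, was at 10.7 and 9.75 FPKM in siNC, 4.17, 6.45 and 5.22 in siHHEX, 12.99 and 12.5 in siYAP/TAZ and 9.42 in the library labelled siTEAD1/2/3/4. The 3 siHHEX values were below, and the siYAP/TAZ values above, all values of siNC. Its level was 0.516 times that of siNC in siHHEX (log2 fold change -0.85 ± 0.16 (SE), adjusted p = 0.00834) and 1.25 times in siYAP/TAZ, where the change did not pass the test (adjusted p = 0.306). *IDI1*, the isopentenyl diphosphate isomerase, was at 7.79 and 7.21 FPKM in siNC, 4.25, 5.64 and 3.34 in siHHEX, 9.19 and 8.61 in siYAP/TAZ and 6.03 in the library labelled siTEAD1/2/3/4. It had the same order, lower in siHHEX (-0.67 ± 0.17 (SE), adjusted p = 0.0202) and with a log2 fold change of 0.22 in siYAP/TAZ (adjusted p = 0.489). It overlaps *IDI2-AS1* on the opposite strand and has 3 annotated pseudogenes, and since the counting of strand is not stated its values are uncertain.

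*MVD*, which decarboxylates mevalonate diphosphate, went the other way in siHHEX, at 14.1 and 13.4 FPKM in siNC, 23.1, 23.2 and 24.7 in siHHEX, 21.1 and 17.7 in siYAP/TAZ and 18.5 in the library labelled siTEAD1/2/3/4. It rose in siHHEX (0.74 ± 0.12 (SE), adjusted p = 0.00623), with the siHHEX libraries close together, and had a log2 fold change of 0.46 in siYAP/TAZ (adjusted p = 0.0625). *FDPS*, the farnesyl diphosphate synthase, was at 40.9 and 41.1 FPKM in siNC, 65.8, 56.5 and 64.1 in siHHEX, 47.1 and 46.2 in siYAP/TAZ and 51.9 in the library labelled siTEAD1/2/3/4. It too rose in siHHEX (0.59 ± 0.11 (SE), adjusted p = 0.00853), and it is uncertain for the same reason as *IDI1*, overlapping *RUSC1-AS1* and having 8 pseudogenes. *MVK* and *PMVK*, the kinases of mevalonate and of its phosphate, were both higher in siHHEX 1 and 3 and near siNC level in siHHEX 2. Their siHHEX fold changes of 0.34 and 0.50 did not pass the test (adjusted p = 0.228 and 0.141). Thus consecutive enzymes of 1 chain lay on both sides of siNC in siHHEX, and all 6 were above siNC in both siYAP/TAZ libraries, as were 42.9% of all tested genes.

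The second group led from farnesyl diphosphate to cholesterol, and held the gene with the largest change. *TM7SF2*, a sterol C14 reductase, was at 2.38 and 3.62 FPKM in siNC, 8.33, 6.98 and 11.6 in siHHEX, 16.3 and 26.9 in siYAP/TAZ and 9.47 in the library labelled siTEAD1/2/3/4. All 6 knockdown libraries were above both siNC libraries, and siYAP/TAZ was above siHHEX. The ratio of mean FPKM to siNC was 7.21 in siYAP/TAZ, 2.99 in siHHEX and 3.16 in the library labelled siTEAD1/2/3/4. Its log2 fold change in siYAP/TAZ, 2.48 ± 0.27 (SE) (adjusted p = 0.00342), ranked 1 from the highest among the 10677 tested genes, and its adjusted p stayed under 0.05 under each alternative run. In siHHEX it was 1.31 ± 0.25 (SE) (adjusted p = 0.008696). Only the end of *VPS51* overlaps the start of *TM7SF2* on the same strand (*TM7SF2*, chromosome 11 of GRCh38, 65111845 to 65116384). Reads from this short stretch may be split between the genes. *VPS51*, a tethering protein gene of the endosomal and Golgi system, was at 31.6 and 34.9 FPKM in siNC, 50.96, 45.5 and 57.2 in siHHEX, 34.1 and 35.3 in siYAP/TAZ and 39.6 in the library labelled siTEAD1/2/3/4. It overlapped siNC in siYAP/TAZ (0.06, adjusted p = 0.811) and rose in siHHEX (0.60, adjusted p = 0.0109), a call lost with the composition correction (0.21, adjusted p = 0.204).

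*HSD17B7*, the 3-ketosteroid reductase of the same stretch of the pathway, was at 3.596 and 4.15 FPKM in siNC, 3.25, 4.08 and 3.64 in siHHEX, 6.62 and 7.51 in siYAP/TAZ and 4.46 in the library labelled siTEAD1/2/3/4. The siYAP/TAZ libraries were above all 6 others, at 1.82 times siNC (0.73 ± 0.15 (SE), adjusted p = 0.0228), and siHHEX overlapped siNC (-0.07, adjusted p = 0.707). The call was lost with no filter on low values, without siNC 1, without siNC 2 and without siYAP/TAZ 2. The gene has 2 annotated pseudogenes, so that its reads may be shared. *LSS*, the lanosterol synthase, was at 4.35 and 4.47 FPKM in siNC, 6.76, 6.96 and 7.73 in siHHEX, 7.55 and 5.29 in siYAP/TAZ and 5.49 in the library labelled siTEAD1/2/3/4. It rose in siHHEX (0.59 ± 0.15 (SE), adjusted p = 0.0198), and was above siNC in both siYAP/TAZ libraries without passing the test (adjusted p = 0.126). *EBP*, the sterol isomerase known as emopamil binding protein, was at 56.7 and 59.97 FPKM in siNC, 76.3, 72.8 and 84.9 in siHHEX, 59.6 and 45.2 in siYAP/TAZ and 63.3 in the library labelled siTEAD1/2/3/4. It rose in siHHEX (0.41 ± 0.14 (SE), adjusted p = 0.0469), while the siYAP/TAZ libraries lay on both sides of siNC 1.

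The enzymes that fell in siHHEX included 4 of the oxidative steps. *SQLE*, the squalene epoxidase, was at 18.6 and 20.9 FPKM in siNC, 10.9, 14.3 and 9.67 in siHHEX, 19.7 and 15.4 in siYAP/TAZ and 15.4 in the library labelled siTEAD1/2/3/4. *CYP51A1*, the lanosterol demethylase, was at 29.6 and 28.4 FPKM in siNC, 21.6, 24.2 and 19.5 in siHHEX, 36.8 and 29.9 in siYAP/TAZ and 25.8 in the library labelled siTEAD1/2/3/4. *MSMO1*, the methylsterol monooxygenase, was at 18.95 and 20.7 FPKM in siNC, 10.5, 13.6 and 7.58 in siHHEX, 21.9 and 16.5 in siYAP/TAZ and 12.9 in the library labelled siTEAD1/2/3/4. For all of these the 3 siHHEX libraries were below both siNC libraries, with siHHEX 2 nearest to siNC. Their log2 fold changes in siHHEX were -0.73, -0.40 and -0.88 (adjusted p = 0.0159, 0.0498 and 0.0162). *CYP51A1* was just inside the threshold, overlaps *AKAP9* and has 3 pseudogenes. *SC5D*, the sterol C5 desaturase, was at 5.81 and 5.39 FPKM in siNC, 3.23, 3.16 and 2.53 in siHHEX, 7.73 and 7.104 in siYAP/TAZ and 5.01 in the library labelled siTEAD1/2/3/4. It fell to 0.531 times siNC in siHHEX (-0.74 ± 0.13 (SE), adjusted p = 0.00744) and was at 1.32 times siNC in siYAP/TAZ (0.35, adjusted p = 0.154). *FDFT1*, the squalene synthase, was at 19.3 and 17.97 FPKM in siNC, 23.9, 18.8 and 18.9 in siHHEX and 39.3 and 24.2 in siYAP/TAZ, with siYAP/TAZ 1 well above siYAP/TAZ 2 (adjusted p = 0.0741 in siYAP/TAZ and 0.634 in siHHEX). *NSDHL* and *DHCR7*, a sterol dehydrogenase and the enzyme of the last step to cholesterol, had log2 fold changes of 0.04 and 0.14 in siHHEX and -0.08 and -0.03 in siYAP/TAZ, and none passed the test.

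The third group comprised the SREBP factors and their ER control. *SREBF1*, the gene of SREBP1, was at 16.3 and 15.7 FPKM in siNC, 28.1, 21.1 and 26.1 in siHHEX, 22.05 and 21.9 in siYAP/TAZ and 19.6 in the library labelled siTEAD1/2/3/4. It rose in siHHEX (0.61 ± 0.14 (SE), adjusted p = 0.0138) and had a log2 fold change of 0.43 in siYAP/TAZ (adjusted p = 0.104), and its exons overlap *RAI1* on the opposite strand. *SREBF2*, the gene of SREBP2, was at 10.8 and 12.4 FPKM in siNC, 17.8, 14.2 and 12.8 in siHHEX, 21.5 and 13.6 in siYAP/TAZ and 14.8 in the library labelled siTEAD1/2/3/4. All 6 knockdown libraries were above siNC, but the spread was wide, with siYAP/TAZ 1 the highest, and neither fold change passed the test (0.33, adjusted p = 0.212 in siHHEX, and 0.53, adjusted p = 0.155 in siYAP/TAZ). *SCAP*, the gene of the escort protein, was at 11.3 and 12.6 FPKM in siNC, 18.4, 17.6 and 19.7 in siHHEX, 12.1 and 10.2 in siYAP/TAZ and 14.3 in the library labelled siTEAD1/2/3/4. It rose in siHHEX (0.59 ± 0.13 (SE), adjusted p = 0.0117), and the siYAP/TAZ libraries lay on both sides of siNC 1 (-0.10).

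The INSIG genes, which encode the ER anchors of SCAP, differed from each other. *INSIG1*, itself a known SREBP target, was at 6.13 and 6.09 FPKM in siNC, 3.73, 7.18 and 5.33 in siHHEX, 12.4 and 10.7 in siYAP/TAZ and 9.78 in the library labelled siTEAD1/2/3/4. The siYAP/TAZ values were above all siNC and siHHEX values, at 1.89 times siNC, with an adjusted p of 0.0565 that missed the threshold (0.82 ± 0.22 (SE)). In siHHEX it lay on both sides of siNC, with siHHEX 1 low and siHHEX 2 high (-0.19, adjusted p = 0.492). *INSIG2*, the gene of its relative, was at 4.26 and 4.504 FPKM in siNC, 2.53, 1.47 and 2.94 in siHHEX, 3.995 and 4.22 in siYAP/TAZ and 3.19 in the library labelled siTEAD1/2/3/4. It fell in siHHEX (-0.73 ± 0.19 (SE), adjusted p = 0.0203) and stood near siNC in siYAP/TAZ (-0.08). *STARD4*, which carries sterol between membranes, was at 2.04 and 1.78 FPKM in siNC, 0.881, 0.795 and 0.503 in siHHEX, 2.54 and 1.45 in siYAP/TAZ and 1.34 in the library labelled siTEAD1/2/3/4. It fell in siHHEX to 0.3801 times siNC (-0.76 ± 0.18 (SE), adjusted p = 0.0147), at levels under 1 FPKM in each siHHEX library, where log2(FPKM + 1) understates a change. *ACAT2*, the cytosolic acetoacetyl-CoA thiolase, had log2 fold changes of -0.15 in siHHEX and 0.09 in siYAP/TAZ, and neither passed the test. It overlaps *SOD2* and *TCP1* on the opposite strand, and *MVK* likewise overlaps *MMAB*.

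**Figure D2:**
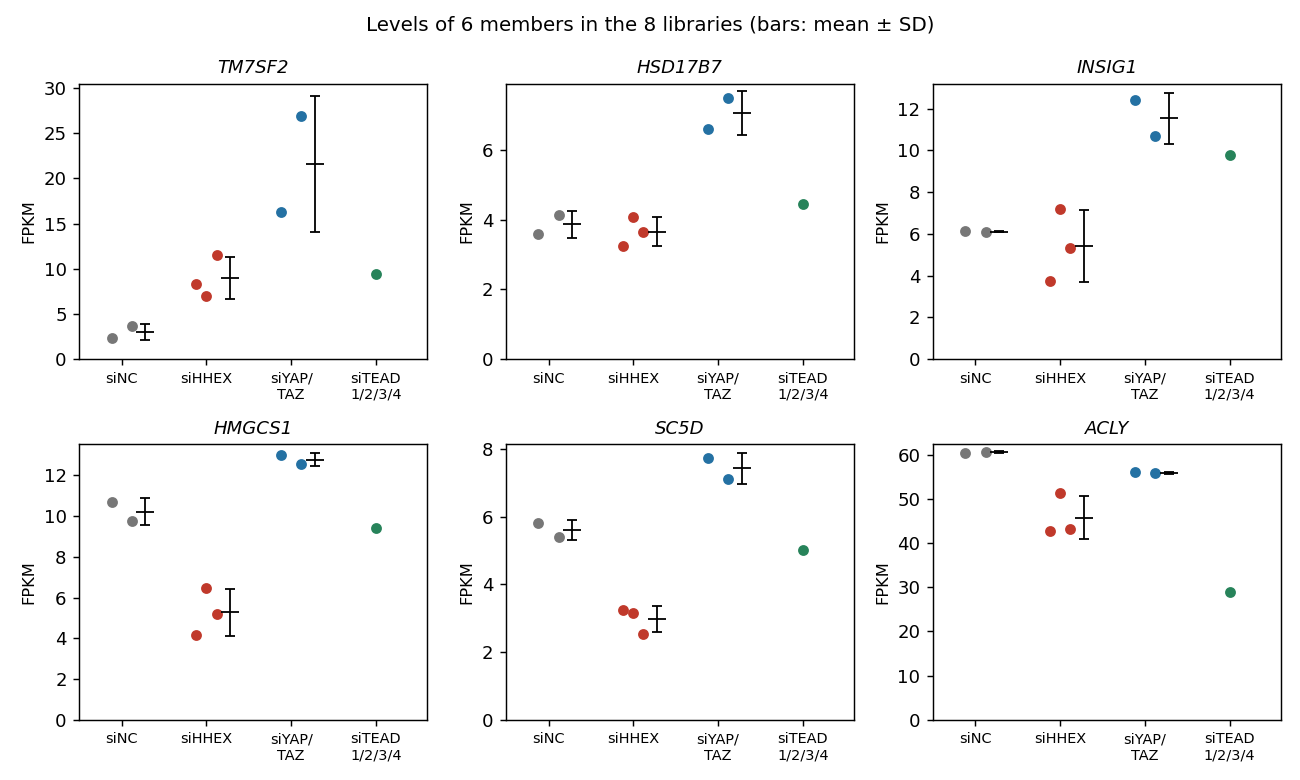
FPKM of 6 genes in the 8 libraries, with 1 point per library and, beside each group of 2 or 3, the mean ± SD. *TM7SF2*, *HSD17B7* and *INSIG1* are highest in siYAP/TAZ, *HMGCS1* and *SC5D* are lowest in siHHEX and highest in siYAP/TAZ, and *ACLY* is lowest in the library labelled siTEAD1/2/3/4.

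The last group made and modified fatty acids. Per length, *FASN* and *SCD* were the most abundant of the 32 genes in siNC, at 104 ± 7.06 and 101 ± 5.69 FPKM (SD, n = 2), and *LPIN1*, a phosphatidate phosphatase gene, was the least, at 0.987 ± 0.178 FPKM. *ACLY*, the enzyme that makes cytosolic acetyl-CoA from citrate, was at 60.4 and 60.7 FPKM in siNC, 42.7, 51.4 and 43.1 in siHHEX, 56.1 and 55.7 in siYAP/TAZ and 28.9 in the library labelled siTEAD1/2/3/4. It fell in siHHEX (-0.40 ± 0.12 (SE), adjusted p = 0.0302). Its siYAP/TAZ values were just below siNC (-0.11, adjusted p = 0.611), and the value in the library labelled siTEAD1/2/3/4 was 0.477 times the siNC mean. *ELOVL6*, the elongase of saturated and monounsaturated acyl chains, was at 7.26 and 7.47 FPKM in siNC, 4.02, 2.901 and 3.998 in siHHEX, 10.1 and 10.1 in siYAP/TAZ and 6.03 in the library labelled siTEAD1/2/3/4. The siHHEX values were below and the siYAP/TAZ values above siNC, with log2 fold changes of -0.86 ± 0.14 (SE) in siHHEX (adjusted p = 0.00641) and 0.41 ± 0.16 (SE) in siYAP/TAZ (adjusted p = 0.127).

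Both chain-modifying desaturases of polyunsaturated acids were measured. *FADS2*, the delta-6 desaturase, was at 2.902 and 3.16 FPKM in siNC, 4.56, 5.195 and 4.18 in siHHEX, 4.58 and 3.28 in siYAP/TAZ and 3.61 in the library labelled siTEAD1/2/3/4. It rose in siHHEX (0.48 ± 0.15 (SE), adjusted p = 0.0373). *FADS1*, the delta-5 desaturase, was at 9.301 and 8.77 FPKM in siNC, 10.1, 9.65 and 10.9 in siHHEX and 23.3 and 11.9 in siYAP/TAZ, with siYAP/TAZ 1 well above siYAP/TAZ 2 (adjusted p = 0.0687). *FADS1* and *FADS2* overlap each other on opposite strands and *FADS2* overlaps *FEN1*, so that these values are uncertain. *FASN*, the fatty acid synthase, did not pass the test in either knockdown (0.11 in siHHEX and -0.24 in siYAP/TAZ). Nor did *SCD*, the stearoyl-CoA desaturase (0.02 and 0.48), *ACACA*, the acetyl-CoA carboxylase (-0.08 and 0.42), or *LPIN1* (-0.06 and 0.37). For *SCD*, *ACACA* and *LPIN1*, both siYAP/TAZ libraries were nevertheless above both siNC libraries, and reads of *SCD* may be shared with its pseudogene *SCDP1*.

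The direction of a gene in siHHEX went with its GC content. The 8 genes that rose in siHHEX had transcripts of 54.0% to 65.5% GC (median 60.4%), and the 10 that fell had 34.4% to 52.0% (median 38.4%), with no overlap. Over the 32 genes, Spearman's rho between change and GC content was 0.853, 0.813 and 0.861 in siHHEX 1, 2 and 3, 0.174 and 0.102 in siYAP/TAZ 1 and 2 and 0.633 in the library labelled siTEAD1/2/3/4, where the points of a library share its preparation and depth. Of the 9 genes under 45% GC, 8 were called lower in siHHEX, where 38.7% of all tested genes of such GC were, and 0 were called higher. Of the 12 over 55% GC, 7 were called higher, where 36.8% of all tested genes of such GC were, and 0 lower.

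**Figure D3:**
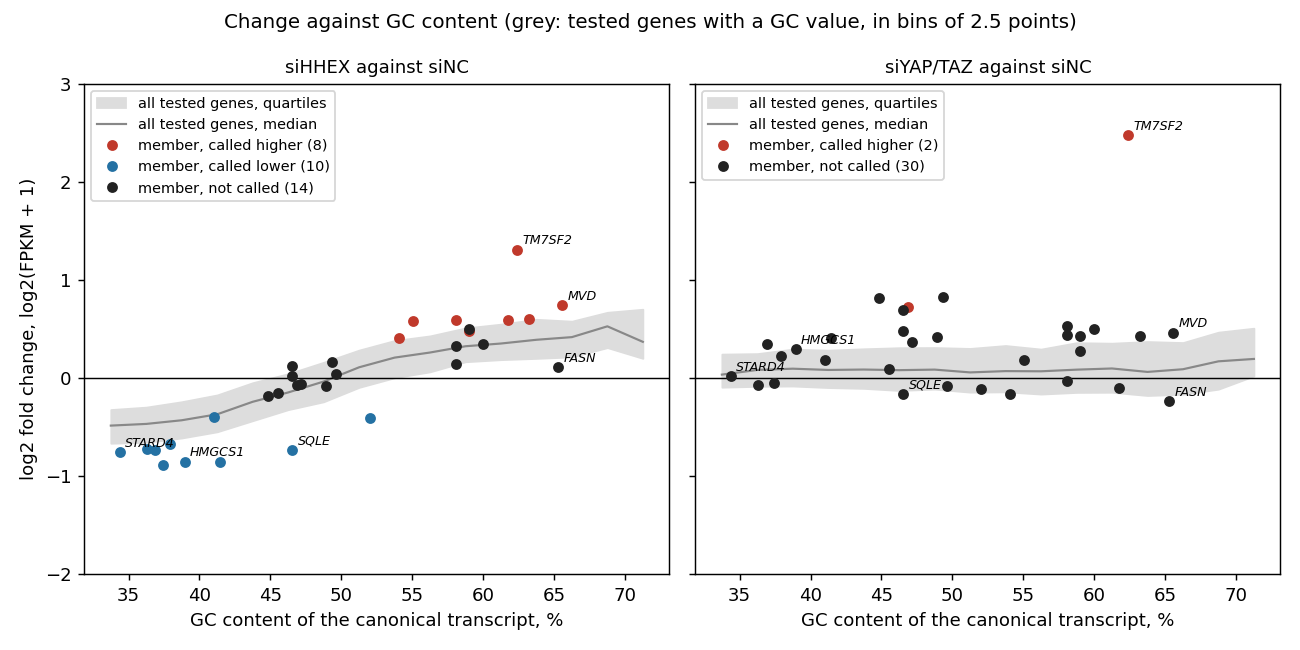
Log2 fold change of the 32 genes against the GC content of their canonical transcript, for siHHEX (left) and siYAP/TAZ (right), with called genes in red (higher) and blue (lower) and, in grey, the median and quartiles of all tested genes in bins of GC content. In siHHEX the genes rise with GC content as the grey band does, and in siYAP/TAZ the band is flat.

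With the composition correction, *ACLY* alone was called in siHHEX. It fell (-0.47 ± 0.11 (SE), adjusted p = 0.0463), 1 of 32, where 3.12% of all genes with a GC content were lower, and 0 of 32 were higher, where 3.16% were. *TM7SF2* was at 0.86 ± 0.22 (SE) after the correction (adjusted p = 0.0547), *SQLE* at -0.61 (adjusted p = 0.0606), *HMGCS1* at -0.41 (adjusted p = 0.103), *MVD* at 0.29 (adjusted p = 0.146) and *SC5D* at -0.25 (adjusted p = 0.212). The signs of all 18 genes called in siHHEX were kept. A correction of this kind also takes off any change that itself goes with GC content, and these cannot be told apart here.

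The composition correction changed the siYAP/TAZ values little. *TM7SF2* was at 2.48 (adjusted p = 0.00251) and *HSD17B7* at 0.76 (adjusted p = 0.0152). *INSIG1* (0.84, adjusted p = 0.0369), *MVD* (0.45, adjusted p = 0.0451) and *FADS1* (0.83, adjusted p = 0.04999) now also passed the test. This made 5 of 32 higher, where 9.18% of all genes were, and 0 lower, where 3.36% were. The median of the 32 was 0.31 in siYAP/TAZ and -0.00238 in siHHEX after the correction, against 0.08 and -0.02 over all genes with a GC content.

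**Figure D4:**
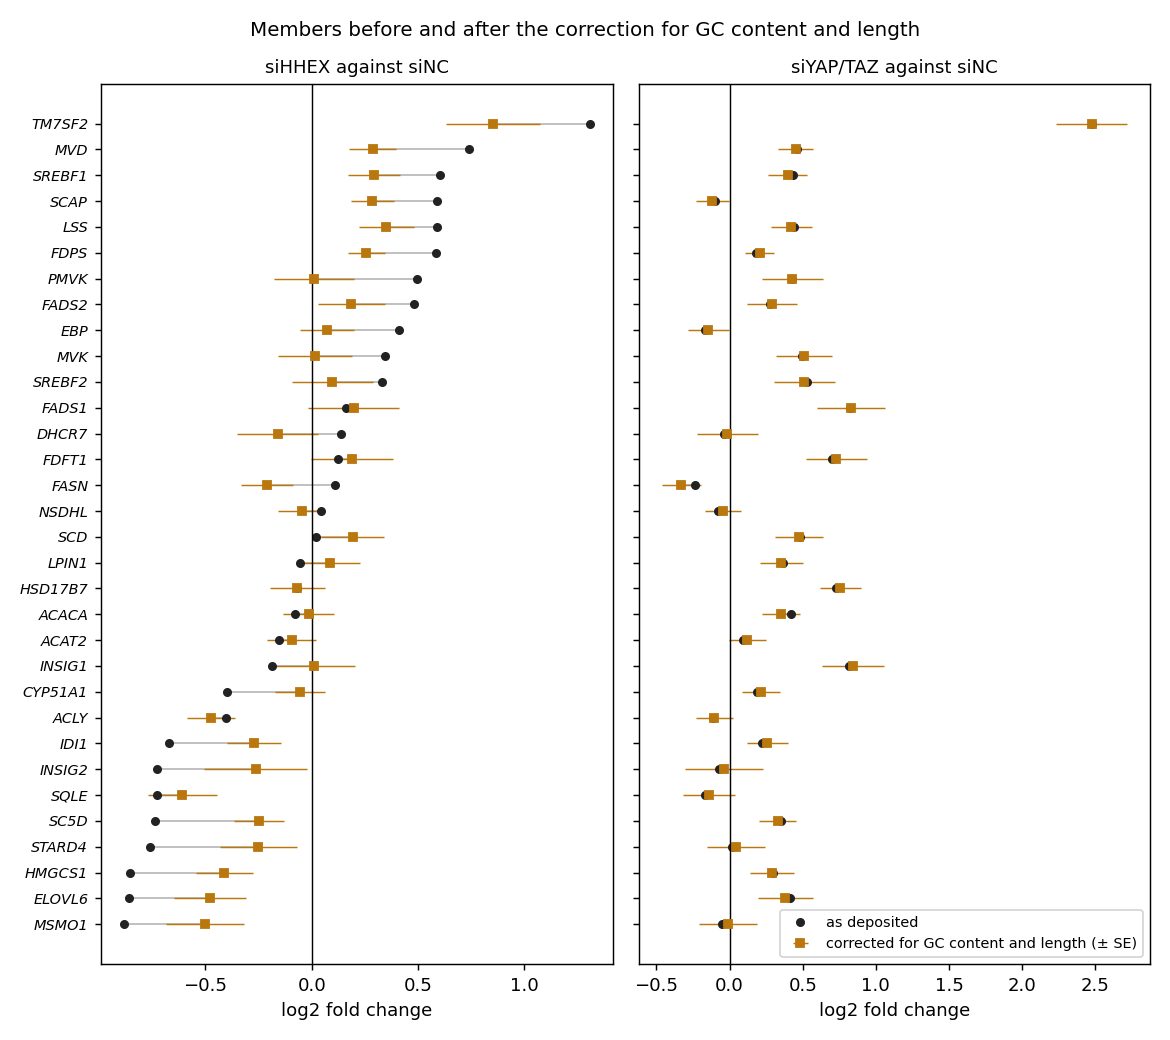
Log2 fold change of the 32 genes against siNC as deposited (black circles) and after the composition correction (orange squares, ± SE), for siHHEX (left) and siYAP/TAZ (right), in the order of the siHHEX values. In siHHEX most genes move towards 0, and in siYAP/TAZ the symbols nearly coincide.

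The knockdowns were next compared directly. The differences do not use the siNC values, but the calls do, since the siNC libraries enter through the shared spread. *FDPS*, *EBP* and *SCAP* were higher in siHHEX than in siYAP/TAZ, 3 of 32, where 13.5% of all tested genes were higher. A further 17 of 32 were lower (53.1%), where 25.9% of all tested genes were lower. These were *HMGCS1*, *IDI1*, *FDFT1*, *SQLE*, *CYP51A1*, *TM7SF2*, *MSMO1*, *HSD17B7*, *SC5D*, *INSIG1*, *INSIG2*, *STARD4*, *SCD*, *ACACA*, *ELOVL6*, *FADS1* and *LPIN1*. The largest log2 differences, siHHEX minus siYAP/TAZ, were those of *ELOVL6* (-1.27 ± 0.14 (SE), adjusted p = 0.00282), *TM7SF2* (-1.17 ± 0.25 (SE), adjusted p = 0.00909), *HMGCS1* (-1.15 ± 0.16 (SE), adjusted p = 0.00407) and *SC5D* (-1.09 ± 0.13 (SE), adjusted p = 0.003303). For *INSIG1*, which passed in neither knockdown against siNC, the difference itself did (-1.001 ± 0.21 (SE), adjusted p = 0.007995). The median difference of the 32 was -0.44, against -0.13 over all tested genes, and with each library scaled to 1 median the split was 5 higher and 10 lower, where 23.5% and 12.97% of all tested genes were. The counts were 4 and 7 without siYAP/TAZ 1, where 9.66% and 17.9% of all were, and 0 and 11 without siYAP/TAZ 2, where 3.82% and 5.79% were. They were 2 and 11 when siNC 1 or siNC 2 was left out, where 9.44% and 18.5% were without siNC 1 and 9.43% and 18.5% without siNC 2.

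After the composition correction, 7 of 32 were lower in siHHEX than in siYAP/TAZ, where 6.72% of all genes were. They were *HMGCS1* (-0.70, adjusted p = 0.02298), *IDI1* (-0.53, 0.0395), *TM7SF2* (-1.62, 0.0121), *HSD17B7* (-0.82, 0.0141), *SC5D* (-0.58, 0.0243), *INSIG1* (-0.83, 0.0352) and *ELOVL6* (-0.86, 0.0241). Only *SCAP* of the 32 was higher (0.40, adjusted p = 0.0432), where 2.3% of all genes were. The median difference of the 32 was -0.33 after the correction, against -0.10 over all genes with a GC content.

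Without a model, the libraries were also compared by overlap. In 11 of 32 genes (34.4%) every siHHEX library was above both siNC libraries, where this held for 33.1% of all tested genes, and in 10 every siHHEX library was below, where 33.8% were. In 22 of 32 genes (68.8%) both siYAP/TAZ libraries were above both siNC libraries, where this held for 42.9% of all. Only *INSIG2* and *ACLY* of the 32 were below siNC in both siYAP/TAZ libraries, where 24.8% of all tested genes were. Since all genes of a library share its scaling, the genes are not independent of each other.

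The library labelled siTEAD1/2/3/4 has no replicate, so that its values carry no test. *TM7SF2* (1.41) and *INSIG1* (0.60) were more than 1.5-fold above the siNC mean on log2(FPKM + 1) and outside both siNC values, 2 of 32, where 4.15% of all tested genes were. *ACLY* was the 1 gene more than 1.5-fold below on this scale (-1.04), where 2.15% were, and it ranked 42 from the lowest of the 10677. *MSMO1*, at -0.58, just missed the limit. By the ratio of FPKM it was at 0.649 times the siNC mean, and passed the limit together with *ACLY*, 2 of 32, where 3.27% of all tested genes did. By that ratio *TM7SF2* and *INSIG1* again passed it upward, 2 of 32 (6.25%), where 9.75% of all did. *FADS1*, at 0.51, was the next gene above siNC after *INSIG1*. The median of the 32 was 0.09, against 0.06 over all tested genes.

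Other genes of the pathway were taken from lists of named steps, and their counts stand against 16% of all tested genes higher and 16.9% lower in siHHEX, and 6.15% and 2.13% in siYAP/TAZ. Of 3 tested sterol synthesis genes outside the 32, *LBR*, which carries the same C14 reductase activity as *TM7SF2* and is also a lamin B receptor, fell in siHHEX (-0.72 ± 0.14 (SE), adjusted p = 0.00973). It was at 43.7 and 44.3 FPKM in siNC, 29.7, 26.3 and 23.5 in siHHEX, 41.4 and 32.4 in siYAP/TAZ and 40.4 in the library labelled siTEAD1/2/3/4, and the other 2 did not pass the test. In the isoprenoid branch, which leads to ubiquinone and to protein prenylation, 1 of 9 rose and 3 fell in siHHEX, and 1 rose in siYAP/TAZ. *PDSS1* and *PDSS2*, the subunits of the synthase that makes the ubiquinone side chain, moved apart in siHHEX. *PDSS1* was at 4.75 and 4.57 FPKM in siNC, 2.51, 2.87 and 2.51 in siHHEX and 3.15 and 2.93 in siYAP/TAZ, lower in siHHEX (adjusted p = 0.00834). *PDSS2* was at 2.16 and 1.87 FPKM in siNC, 3.25, 3.25 and 3.33 in siHHEX and 3.45 and 3.95 in siYAP/TAZ, higher in siHHEX (adjusted p = 0.0161) and in siYAP/TAZ (adjusted p = 0.0243). Both siHHEX calls were also made after the correction (adjusted p = 0.0358 and 0.0135). *PGGT1B*, a prenyltransferase subunit gene, fell in siHHEX (-0.63, adjusted p = 0.00834).

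Of 7 tested genes of the proteases and of ER degradation, *AUP1*, which acts in ER protein degradation, rose in siHHEX (0.51, adjusted p = 0.0402). The rest of that list did not pass the test in siHHEX, and none of the 7 did in siYAP/TAZ. Of 10 tested genes of sterol storage, transport and the LXR receptors, 3 rose and 2 fell in siHHEX and none passed the test in siYAP/TAZ. *NR1H2*, the gene of LXR beta, rose (0.75, adjusted p = 0.0197). *TMEM97*, the sigma-2 receptor gene, and *SOAT1*, a cholesterol acyltransferase gene, fell (-0.70 and -0.63, adjusted p = 0.0153 and 0.01797). Of 20 tested genes of other fatty acid synthesis and activation, 3 rose and 6 fell in siHHEX and 1 rose in siYAP/TAZ. *ELOVL7*, an elongase, and *ACSL3*, an acyl-CoA synthetase, fell in siHHEX (-0.85 and -0.79, adjusted p = 0.00973 and 0.03405). As deposited, the gene that rose in siYAP/TAZ was *ME1*, the cytosolic malic enzyme that supplies NADPH, at 12.7 and 12.4 FPKM in siNC and 22.9 and 22.6 in siYAP/TAZ (0.81 ± 0.12 (SE), adjusted p = 0.00938). After the composition correction, the siHHEX calls of *LBR*, *PGGT1B*, *AUP1*, *NR1H2*, *TMEM97*, *SOAT1*, *ELOVL7* and *ACSL3* were lost (adjusted p = 0.0725 for *TMEM97*, the lowest, to 0.692 for *PGGT1B*, the highest). The changes did not shrink alike, since *TMEM97* was at -0.52 after the correction and *PGGT1B* at -0.11. As deposited, none of these 5 lists had a gene called lower in siYAP/TAZ, and after the correction *PDSS1* was (-0.46, adjusted p = 0.04005, against -0.49 and 0.0531 before it). After it, 3.16% of all genes were higher and 3.12% lower in siHHEX, and 9.18% and 3.36% in siYAP/TAZ. The isoprenoid list then had 1 gene higher and 1 lower in siHHEX and 2 higher and 1 lower in siYAP/TAZ. The fatty acid list had 2 higher and 0 lower in siHHEX, *ME1* (0.54, adjusted p = 0.0281) and *HACD1*, a dehydratase of chain elongation (0.83, adjusted p = 0.0133), and 5 higher and 0 lower in siYAP/TAZ.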

How the data were processed

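The study extracted RNA with Trizol from HCT-116 cells transfected with siRNA, and what the authors deposited is a table of FPKM for every library. The submitters' processing notes name Trimmomatic 0.36, HISAT2 2.0.5, Cufflinks 2.2.1 and HTSeq 0.9.1, and the build and annotation used for RNA-seq are not given in the sources used here. The low values did not resolve into whole reads, so that depth is unknown. The sums ranged from 331663 FPKM (siYAP/TAZ 1) to 383423 FPKM (siHHEX 3). Of the 20030 rows, 27 were named by a date and were not renamed.

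The 10677 genes that reached 1 FPKM in 2 or more libraries entered limma 3.58.1 (R 4.3.3) as log2(FPKM + 1). A joint fit of 8 libraries and 4 groups was used with a variance trend, and Benjamini-Hochberg adjustment ran over all 10677. A call is an adjusted p under 0.05, and every fold change is on log2(FPKM + 1), which understates the changes of low genes. The 32 genes and the other lists were chosen with earlier results of these data known. Values in every library are given for the genes called against siNC and for the SREBP factors and their ER control, and at most 3 called genes were named from each other list, those with the largest change. *EPCAM*, *HACD1*, *ACADM*, *HADHA* and *ACAA2* were named after their values were seen. Among the listed fatty acid genes, *HACD4* and *THRSP* were at 0 in every library. GC content, length and overlaps came from GENCODE 44 on GRCh38, for 10349 tested genes (96.9%). The correction took off a natural spline (4 degrees of freedom each) of GC content and of log length. The study states in general that experiments were replicated independently, and the labels do not say that these libraries came from separate cultures, so that p-values measure the spread between these libraries, which includes the siRNA. Of the leukocyte markers, 1 gene is not reported here. The tests were tried on simulated data.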

Additional observations from a re-analysis of the deposited data

How the results depend on the processing

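No called gene changed sign under the alternatives run. The counts of genes called higher and lower in siHHEX, 8 and 10, were 5 and 4 with no filter on low values, 0 and 1 with the composition correction, 0 and 0 with that correction and the replicate block, and 1 and 0 at the study's thresholds, a fold over 2, here on log2(FPKM + 1), and an unadjusted p under 0.05. By the ratio of mean FPKM, *STARD4* (0.380) and *ELOVL6* (0.494) were also more than 2-fold lower. No share of all tested genes is given for the study's thresholds, here or below, so that those counts are not set against other genes. When 1 siHHEX library was left out, the counts ranged from 6 to 9 and from 7 to 10. The shares of all tested genes then ranged from 10.7% to 20.4% and from 9.08% to 24.9%. The 2 genes higher in siYAP/TAZ were 1 with no filter, 8 in a fit of only these groups, 4 with 1 sum in every library, 5 with the correction, 5 with the correction and the replicate block, and 1 at those thresholds. They were 3 to 6 when 1 siHHEX library was left out, where 3.90% to 8.88% of all tested genes were higher. Between siHHEX and siYAP/TAZ, the 3 higher and 17 lower were 5 and 10 with median scaling, 1 and 7 with the correction, and 0 and 4 with the correction and the replicate block. They were 0 and 5 at those thresholds, for which no share of all tested genes is given. The 17 lower were 10 with no filter and 11 in a fit of only these groups. Leaving out 1 siHHEX library gave 2 to 4 higher and 13 to 14 lower, where 10.9% to 16.4% and 16.9% to 31.9% of all tested genes were. The counts of this comparison without a siYAP/TAZ or a siNC library are given above. In the library labelled siTEAD1/2/3/4, 1 gene was above the limit with median scaling, and 2 were below it with median scaling, with a pseudocount of 0.1, against siNC 2 alone and by the ratio of FPKM, an alternative chosen after seeing the data. No share of all tested genes is given for median scaling, the pseudocount of 0.1 or siNC 2 alone, so that these counts are not set against other genes. The replicate block gave 5 higher and 7 lower in siHHEX, where 9.58% and 9.73% of all tested genes were. Deviations from the group means did not go with the replicate number (correlations of -0.0704 to 0.0215), so that the numbers do not pair them. Over all tested genes the shares moved with these settings too, from 16% higher and 16.9% lower in siHHEX to 6.37% and 5.35% with no filter and 0.512% and 0.899% with the correction and the replicate block, and from 6.15% higher in siYAP/TAZ to 1.47% with no filter, 8.13% with the correction and the replicate block, 11.4% in the fit of only these groups and 9.08% with 1 sum in every library. Between siHHEX and siYAP/TAZ, they moved from 13.5% higher and 25.9% lower to 23.5% and 12.97% with median scaling, 2.30% and 6.72% with the correction, and 0.444% and 1.94% with the correction and the replicate block, and the share lower was 13.7% with no filter and 18.6% in a fit of only these groups. The causes of these shifts were not tested. The siHHEX calls need both siNC libraries, and with 1 of these left the other groups alone give the spread. The unknown depth limits what can be said of genes near 1 FPKM.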

Other observations

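Lists of neighbouring lipid genes were counted in the same fit. Of 10 tested genes of glycerolipid synthesis, 3 rose and 2 fell in siHHEX, and 1 rose in siYAP/TAZ, where 16%, 16.9% and 6.15% of all tested genes did. After the composition correction, 1 was higher and 1 lower in siHHEX, where 3.16% and 3.12% of all genes were, and 2 were higher and 1 lower in siYAP/TAZ, where 9.18% and 3.36% were. *AGPAT5* and *AGPAT1*, acyltransferases that make phosphatidate, moved apart in siHHEX. *AGPAT5* was at 33.8 and 32.4 FPKM in siNC, 14.2, 17.7 and 13.4 in siHHEX and 24.2 and 24.1 in siYAP/TAZ (-1.09 ± 0.14 (SE) in siHHEX, adjusted p = 0.00368), and *AGPAT1* was at 7.69 and 7.42 FPKM in siNC, 14.5, 12.7 and 14.001 in siHHEX and 11.8 and 10.05 in siYAP/TAZ (0.78 ± 0.13 (SE) in siHHEX, adjusted p = 0.00565). Both siHHEX calls were also made after the composition correction (adjusted p = 0.0163 and 0.04503). In siYAP/TAZ the genes had the same directions (-0.44 and 0.47), not called as deposited (adjusted p = 0.0968 and 0.0638). They were called there after the correction (-0.44 and 0.49, adjusted p = 0.0311 and 0.0312). The library labelled siTEAD1/2/3/4, which has no test, was at -0.62 and 0.50. *LPIN3*, a relative of *LPIN1*, rose in siYAP/TAZ (0.58 ± 0.13 (SE), adjusted p = 0.0314).

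Of 14 tested genes of fatty acid oxidation, 4 rose and 1 fell in siHHEX, where 16% and 16.9% of all tested genes did. None passed the test in siYAP/TAZ, where 6.15% of all tested genes were higher and 2.13% lower. The median of the list in siYAP/TAZ was 0.42, against 0.08 over all tested genes. After the composition correction, 1 was higher and 0 lower in siHHEX, where 3.16% and 3.12% of all genes were. In siYAP/TAZ *ACADM*, *HADHA* and *ACAA2*, enzymes of mitochondrial oxidation, were then higher (adjusted p = 0.0314, 0.0338 and 0.0347), 3 of 14, where 9.18% of all genes were. *SLC25A20*, the mitochondrial carnitine-acylcarnitine carrier, was at 6.59 and 5.5998 FPKM in siNC, 10.96, 10.04 and 11.5 in siHHEX and 7.47 and 9.79 in siYAP/TAZ and rose in siHHEX (0.74 ± 0.15 (SE), adjusted p = 0.00929), also after the correction (adjusted p = 0.0267). *ACADS*, the short-chain acyl-CoA dehydrogenase, and *ECHS1*, the short-chain enoyl-CoA hydratase, rose in siHHEX by 0.81 and 0.63 (adjusted p = 0.0223 and 0.0108), and did not pass the test after the correction (adjusted p = 0.233 and 0.161).

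*MMAB*, a cobalamin adenosyltransferase gene whose exons overlap those of *MVK* on the opposite strand, was at 0.647 and 0.418 FPKM in siNC, 1.51, 1.39 and 1.66 in siHHEX, 1.34 and 1.44 in siYAP/TAZ and 0.841 in the library labelled siTEAD1/2/3/4. Its values and those of *MVK* may share reads.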
